A study of Mus musculus with 8 samples.

Results

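The 10 genes described here encode the main enzymes that remove superoxide and peroxides in mouse cells: the peroxiredoxins Prdx1 to Prdx6, the superoxide dismutases Sod1 and Sod2, catalase (Cat) and the glutathione peroxidase Gpx1. They were taken by gene symbol from 55335 genes in the deposited tables, and all 10 passed the filter of 5 CPM on average (counts per 1000000, after scaling), as did 12177 genes in all. The RNA was that of tumour-derived cells, sorted as CD8 T cells, of wild-type C57BL/6 mice (WT) and of CD36 KO mice on the C57BL/6 background (CD36_KO). B16 melanoma cells had been injected intravenously into both, and the tumours had grown for 14 days. Not given in the sources used here were the animals per library, their age, the making of the knockout allele and the sort's gates. The titles of the 8 samples give 4 sequencing lanes of 1 library per genotype, so lanes were summed, no p-value is given, and every interval covers counting error only. The reads carry no stated molecular identifiers and may not be independent molecules.

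Superoxide dismutases turn superoxide into hydrogen peroxide, Sod1 in the cytosol with copper and zinc and Sod2 in the mitochondrial matrix with manganese. The peroxide is then reduced by catalase in peroxisomes, by Gpx1 at the cost of glutathione, and by peroxiredoxins, which use a reactive cysteine that thioredoxin restores. Prdx1 and Prdx2 are cytosolic, Prdx3 is mitochondrial, Prdx4 lies in the endoplasmic reticulum, Prdx5 is found in mitochondria, peroxisomes and cytosol, and Prdx6 restores its single cysteine with glutathione. Activated T cells, macrophages and tumour cells all make and use peroxide, so these genes are expressed broadly.

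The coding stretch around the reactive residue shows how the peroxiredoxins divide, but not how far a read can tell the members apart. Each stretch has 27 bases, 5′ to 3′, read from GENCODE release M21 transcripts (GRCm38), with the codon of the peroxide-reacting cysteine in capitals, or for Gpx1 the in-frame TGA that encodes selenocysteine.
Prdx1: tttacttttgtgTGTcccacggagatc
Prdx2: ttcacttttgttTGCcccacggagatc
Prdx3: ttcacatttgtgTGTcctacagaaatt
Prdx4: ttcacctttgtgTGTccaactgaaatc
Prdx5: tttacacctggcTGTtctaagacccac
Prdx6: tttaccccagtgTGCaccacagaactt
Gpx1: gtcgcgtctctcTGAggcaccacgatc
The codon is number 52 of Prdx1, 51 of Prdx2, 109 of Prdx3, 127 of Prdx4, 99 of Prdx5 and 47 of Prdx6, counted from the start codon. The TGA of Gpx1 is codon 47. Prdx1 and Prdx2 had 24 identical bases of 27 here, and Prdx3 and Prdx4 had 23. Prdx5 had 12 to 14 bases in common with the other members and Prdx6 had 13 to 18.

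Near-identical copies and overlapping neighbours bear on how reads were divided. Of the 31-base words in the transcripts of each member, kallisto's default word length, none of those of Prdx3, Prdx4, Cat or Gpx1 occurred in a transcript of another gene. The values of these 4 genes therefore did not depend on a division of reads with another annotated gene. Prdx1 had 15.4% of its words in other genes, of which 298 words were in the copy Gm21399 and 256 in the copy Gm7204, both at 0 counts. In all, words of Prdx1 occurred in 417 other genes, 399 of them with counts. Prdx2 (16.5%) shared words with its neighbours Junb and Rnaseh2a, and Prdx5 (16.9%) with its neighbour Trmt112, which had 175 counts in each library. Sod2 had 26.7% of its words in other genes, 2199 of them in AC166110.4 (0 counts) and 2015 in Rps6ka2 (228 against 201 counts), and 2121 other genes with counts held at least 1 of them. Prdx6 (2.43%, with 126 other genes with counts) and Sod1 (5.42%, with none) had less overlap. No source used here gives the strand setting of the counting, and values of Prdx1, Prdx2, Prdx5, Prdx6 and Sod2, which share words with genes that had counts, are less certain than the others.

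The libraries held 10071960 (WT) and 10363391 (CD36_KO) counts, 2497048 to 2611740 per lane. Cd36, the targeted gene, was at 1194 counts in WT against 358 in CD36_KO, a log2 ratio of -1.98 with a 95% interval from -2.15 to -1.80. The CD8 T cell markers were higher in the CD36_KO library (12 of 12 at least 2-fold, summed level 345 to 361 CPM in the WT lanes and 1171 to 1217 CPM in the CD36_KO lanes), and the melanoma markers were lower (12 of 12, 5639 to 5870 against 1369 to 1416 CPM). Macrophage markers summed to 5235 to 5294 and 3956 to 3986 CPM, fibroblast markers to 1168 to 1213 and 329 to 339 CPM, erythroid markers to 328 to 372 and 1047 to 1057 CPM and hepatocyte markers to 438 to 476 and 1162 to 1184 CPM. Genes that define cell types other than the labelled one were thus present in both libraries. Per length, the pigment gene Dct reached 324 TPM (transcripts per 1000000) in WT and the T cell receptor gene Trbc2 28.3 TPM, against 104 and 168 TPM in CD36_KO.

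By the main value, the peroxiredoxins, both dismutases and Gpx1 were lower, and catalase alone was higher, in the CD36_KO library. The main value is the log2 ratio of CPM scaled by TMM factors, CD36_KO over WT. Of the 10 members 9 were lower and 1 was higher with an interval that excluded no difference, where 40.7% of all measured genes were lower and 24.9% higher by that rule. At least 2-fold, 2 members were lower and 0 higher, against 10.8% and 6.5% of measured genes. The members' median was -0.50 and that of all measured genes -0.13. After TMM scaling, in 9 members all 4 CD36_KO lanes lay below all 4 WT lanes (33.3% of measured genes) and in 1, Cat, all lay above (19.6%). Before scaling, lanes of the libraries met or overlapped for Prdx3, Prdx6, Sod1 and Sod2. Lanes of 1 library show technical spread only. Over protein-coding transcripts only, with totals and TMM factors computed anew, 7 members were lower and 1 higher with an interval excluding no difference. The share of all genes by that rule is not given for this setting, so these counts have no background beside them. In bulk RNA, fewer cells of a type and less RNA per cell cannot be told apart.

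**Figure D1:**
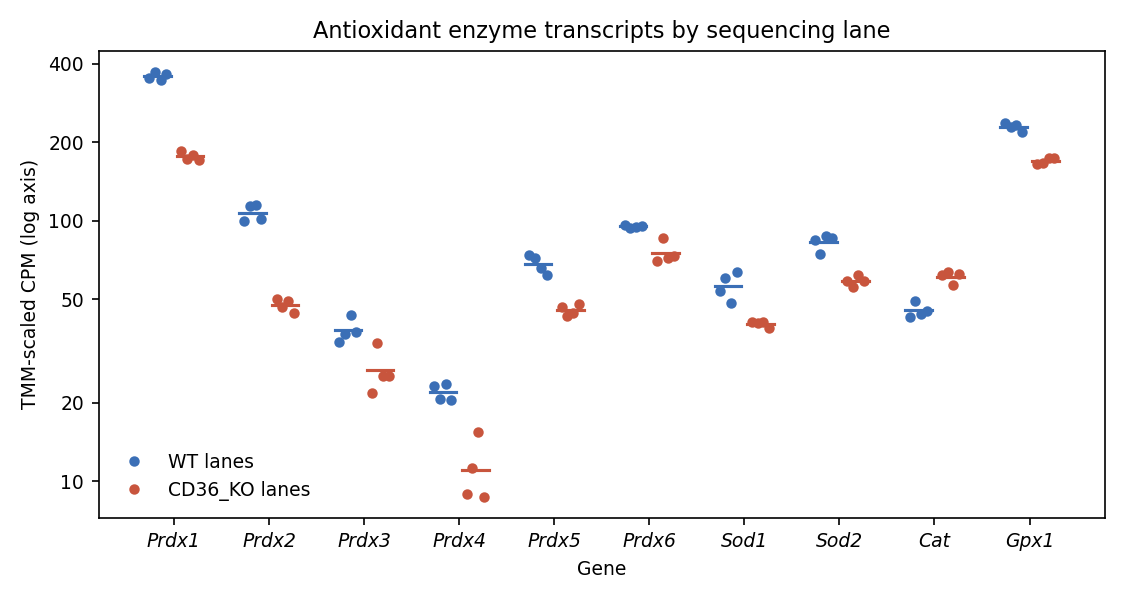
Scaled abundance of the 10 genes in each sequencing lane. The vertical log axis gives TMM-scaled CPM, points are lanes (blue WT, red CD36_KO) and short lines are means of 4 lanes. The lanes of the libraries do not overlap for any of the 10 genes, and Cat is the gene whose CD36_KO lanes (56.5 to 63.6 CPM) lie above its WT lanes (42.6 to 49.3 CPM).

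Prdx1, the most abundant peroxiredoxin of both libraries, had one of the lowest ratios of the 10 genes. Prdx1 (ENSMUSG00000028691.12; GRCm38 chromosome 4, 116685544 to 116700822, plus strand) had 838, 868, 820 and 856 counts in the 4 WT lanes and 517, 476, 499 and 472 in the 4 CD36_KO lanes. The lowest WT lane exceeded the highest CD36_KO lane by a wide margin. The library sums of 3382 and 1965 counts gave 359.5 and 177.1 CPM, a log2 ratio of -1.02 (-1.10 to -0.94), so the CD36_KO library held 49.3% of the WT level (46.6 to 52.1). This ratio was lower than in all but 10.4% of measured genes. Its 2-fold call stood at the threshold: with any 1 WT lane left out the ratio was -0.98 to -0.94 and the gene no longer passed. Without CD36_KO lane 4 it missed the threshold by less than 0.01. The TMM factors, computed anew each time, enter these ratios. Without 1 WT lane they were 0.953 to 0.955 for WT and 1.047 to 1.049 for CD36_KO, against 0.934 and 1.071 with all lanes.

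Prdx2, the peroxiredoxin of the cytosol that is abundant in red blood cells, had the lowest ratio of the 10. Prdx2 (chromosome 8, 84969587 to 84974834, plus strand) had 237, 265, 271 and 238 counts in the WT lanes and 140, 128, 138 and 122 in the CD36_KO lanes. All WT lanes were above 200 counts and no CD36_KO lane was. The sums of 1011 and 528 counts gave a log2 ratio of -1.18 (-1.33 to -1.02), or 44.3% of the WT level. Erythroid markers went the other way, with 5 of 5 measured genes at least 2-fold higher (median 1.62). Melanoma (median -2.26) and fibroblast markers (5 of 7 lower, 1 higher, median -1.32) were lower beside Prdx1 and Prdx2, and their part in the result was not tested.

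Prdx4, the peroxiredoxin of the secretory pathway, had the third lowest ratio but the fewest counts. Prdx4 (chromosome X, 155323918 to 155340754, minus strand) had 55, 48, 56 and 48 counts in the WT lanes and 25, 31, 43 and 24 in the CD36_KO lanes. CD36_KO lane 3 was the highest of its library. The log2 ratio was -0.99 (-1.32 to -0.66), just short of 2-fold, and -1.19 without that lane. Prdx1 and Prdx4 therefore lay on either side of the 2-fold threshold with values of -1.02 and -0.99 that their intervals do not separate.

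The mitochondrial members Prdx5, Prdx3 and Sod2 were each lower with TMM. Prdx5 (chromosome 19, 6906697 to 6910106, minus strand) had 643 and 503 counts (log2 ratio -0.59, -0.76 to -0.42), with 145 to 174 in the WT lanes and 118 to 131 in the CD36_KO lanes. Prdx3 (chromosome 19, 60864051 to 60874556, minus strand) had 81, 86, 103 and 87 counts against 61, 93, 71 and 70. Before scaling CD36_KO lane 2 overlapped the WT lanes of Prdx3, and after scaling its 33.8 CPM lay just under the lowest WT lane at 34.2 CPM. Its log2 ratio was -0.51 (-0.74 to -0.29). Sod2 (chromosome 17, 13006846 to 13040063, plus strand) had 173 to 206 counts per WT lane and 153 to 174 per CD36_KO lane. Its log2 ratio was -0.49 (-0.65 to -0.34). Summed, the 3 mitochondrial genes gave 189 CPM in WT against 131 CPM in CD36_KO (-0.53, -0.63 to -0.43).

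Sod1, Gpx1 and Prdx6, which act mostly in the cytosol, were lower too, with intervals that overlapped those of Prdx3 and Sod2. Sod1 (chromosome 16, 90220754 to 90226329, plus strand) had 127, 140, 114 and 148 counts in the WT lanes and 114, 111, 114 and 107 in the CD36_KO lanes (log2 ratio -0.48, -0.67 to -0.30). Its lowest WT lane equalled its highest CD36_KO lanes before scaling. Gpx1 (chromosome 9, 108338903 to 108340343, plus strand) had 2160 and 1885 counts, 514 to 563 against 458 to 486 per lane (-0.43, -0.52 to -0.34). Prdx6 (chromosome 1, 161240112 to 161251219, minus strand) had 896 and 835 counts (-0.34, -0.48 to -0.20), and its CD36_KO lane 2, at 85.8 CPM, was the nearest to the WT lanes. The ratios of these 3 genes, of Prdx3 and of Sod2 lay between the first quartile of all measured genes, -0.54, and their median.

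Catalase was the exception. Cat (ENSMUSG00000027187.10; chromosome 2, 103453849 to 103485160, minus strand) had 101, 115, 104 and 105 counts in the WT lanes and 173, 175, 158 and 171 in the CD36_KO lanes. Every CD36_KO lane exceeded every WT lane before and after scaling. The sums of 425 and 677 counts gave a log2 ratio of 0.43 (0.26 to 0.61), a level 1.35 times that of the WT library, and 81.8% of measured genes had a lower ratio. Per length, Cat reached 8.81 ± 0.48 TPM in WT against 17.2 ± 1.23 TPM in CD36_KO (SD, 4 lanes each). Liver and red blood cells are known to be rich in catalase. In the same libraries 11 of 12 hepatocyte markers (median 2.57) and 5 of 5 erythroid markers were at least 2-fold higher, and none of them was at 0 in a library. B cell markers (7 of 7, median 2.61), neutrophil markers (6 of 7, median 1.87), lung epithelium markers (4 of 6, median 1.29) and the CD8 T cell markers (median 1.84) were higher by the same rule. The part of these lists in the result for Cat was not tested.

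The direction of 4 members depended on the scale. The median of all measured genes was -0.13 with TMM factors, 0.06 with library totals and 0.37 on the log2(TPM + 1) scale. On the TPM scale Prdx1 (-0.57), Prdx2 (-0.50), Prdx4 (-0.37), Sod2 (-0.21) and Prdx5 (-0.13) stayed negative, while Prdx3 (0.05), Prdx6 (0.22), Sod1 (0.03) and Gpx1 (0.05) were positive. Cat was at 0.89. Set against each scale's own median over measured genes, 9 members were lower and Cat higher with TMM and with TPM, Cat by 0.57 and 0.53. By the TPM ratio 0 of the 10 were past 2-fold, against 12.3% of measured genes higher and 2.7% lower. With library totals 0 were past 2-fold too, against 9.14% higher and 7.71% lower. DESeq2 size factors left Prdx1 and Prdx2 past 2-fold, against 6.69% of genes higher and 10.4% lower. Over genes with 20 CPM or more, which leaves out Prdx4, the shares of all genes were 5.08% higher and 10% lower, and over genes with any count 7.24% and 7.51%. The deposited effective lengths imply a mean fragment length of 160 to 161 bases in the WT lanes and 194 to 195 bases in the CD36_KO lanes. TPM values take effective length into account and CPM values do not. The part of fragment length in the results on either scale was not tested.

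**Figure D2:**
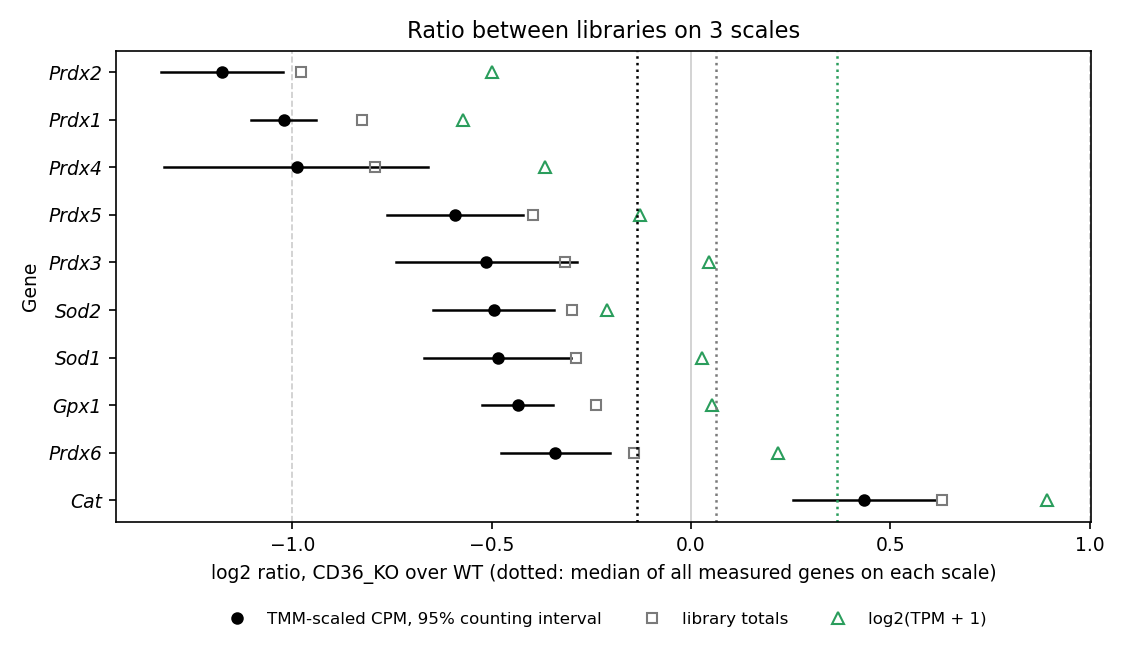
Log2 ratio of the CD36_KO over the WT library for each gene, on the horizontal axis. Circles with lines are TMM-scaled CPM with 95% counting intervals, squares are library totals, triangles are log2(TPM + 1), and dotted lines give the median of all measured genes on each scale in the same colour. Every gene except Cat lies left of the dotted line of its scale, and Cat lies right of all 3.

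Shares within 1 library do not depend on the scaling between libraries. Among the counts of the 6 peroxiredoxins, Prdx1 held 52.1% (50.8 to 53.3, exact Clopper-Pearson interval) in WT against 46.2% (44.7 to 47.8) in CD36_KO. Prdx2 went from 15.6% (14.7 to 16.5) to 12.4% (11.4 to 13.5). Prdx6 took the larger share in the knockout library, 19.7% (18.5 to 20.9) against 13.8% (13.0 to 14.7), and so did Prdx5, with 11.8% (10.9 to 12.8) against 9.90% (9.18 to 10.7), and Prdx3, with 6.94% (6.20 to 7.75) against 5.50% (4.95 to 6.08). By counts, the intervals of each of these 5 genes did not overlap between libraries. Prdx4 held 3.19% (2.77 to 3.64) and 2.89% (2.41 to 3.44), which counting error does not separate. By TPM (SD over lanes), Prdx1 held 49.11% ± 3.73 in WT against 41.84% ± 3.05 in CD36_KO. Prdx6 held 12.76% ± 1.32 against 18.82% ± 3.02. Prdx2 was at 16.99% ± 2.11 against 15.04% ± 3.28, and Prdx5 at 13.18% ± 0.76 against 15.25% ± 2.62. Prdx3 was at 4.14% ± 0.58 against 5.43% ± 1.05. Prdx2, Prdx5 and Prdx3 thus kept their direction by TPM, but their mean ± SD ranges overlapped between libraries.

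**Figure D3:**
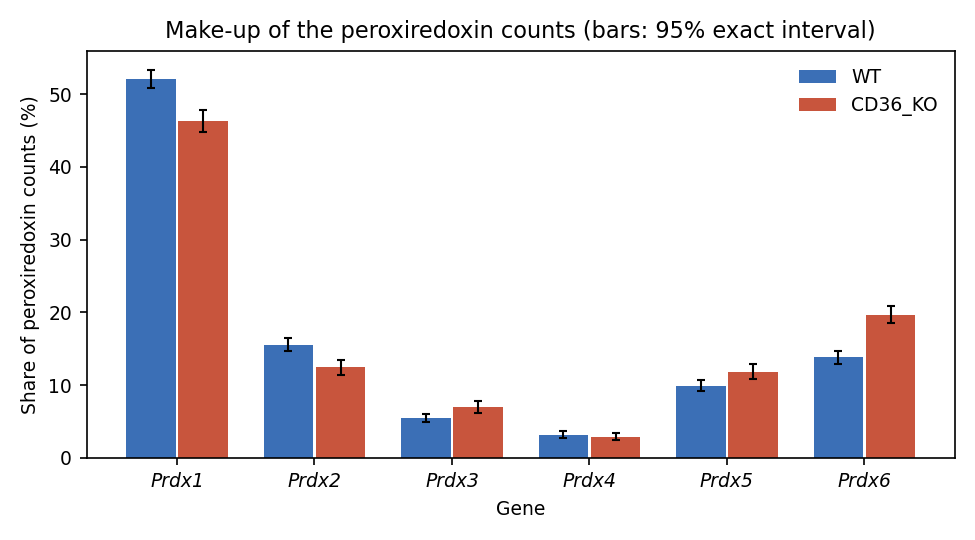
Share of each peroxiredoxin among the summed counts of Prdx1 to Prdx6, in percent, with 95% exact intervals. Blue bars are the WT library and red bars the CD36_KO library. The Prdx1 bar is 52.1% in the WT and 46.2% in the CD36_KO library, and the Prdx6 bar 13.8% and 19.7%.

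Cat and Gpx1 differed between libraries in their proportion, and for Sod1 and Sod2 no difference was detectable. Sod1 held 40.4% (37.8 to 43.2) of the summed Sod1 and Sod2 counts in WT against 40.6% (37.7 to 43.6) in CD36_KO, a difference within counting error. Cat held 16.4% (15.0 to 17.9) of the summed Cat and Gpx1 counts in WT against 26.4% (24.7 to 28.2) in CD36_KO. By TPM, the share of Cat in that pair was 6.33% ± 0.53 and 11.3% ± 1.32 (SD over 4 lanes).

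Gpx1 and Prdx1 had the highest levels per length in both libraries, in a different order. In the WT library Prdx1 was highest (159 ± 20.2 TPM), followed by Gpx1 (131 ± 9.89), and their lanes overlapped. In the CD36_KO library Gpx1 (136 ± 8.82 TPM) stood above Prdx1 (107 ± 8.98), with separate lanes. Prdx2 (54.9 ± 7.81), Sod1 (48.2 ± 7.51), Prdx5 (42.5 ± 1.45) and Prdx6 (41.0 ± 2.67) followed in the WT library. Neighbours among these 4 had overlapping lanes, and Prdx6 lay above Sod2 with separate lanes. In the CD36_KO library the same 4 genes stood between 38.5 TPM (Prdx2) and 49.2 TPM (Sod1), with overlapping lanes between neighbours, and Prdx2 lay above Sod2 with separate lanes. Sod2 was seventh in both libraries, at 23.2 ± 3.35 TPM in WT, and Prdx3 had 13.3 ± 1.56 and 13.8 ± 2.49 TPM. Cat was the lowest of the 10 in the WT library and the eighth in the CD36_KO library, where Prdx4 (9.29 ± 2.67 TPM) was lowest. Summed over the 10 genes the level was 534 TPM in WT against 477 TPM in CD36_KO.

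**Figure D4:**
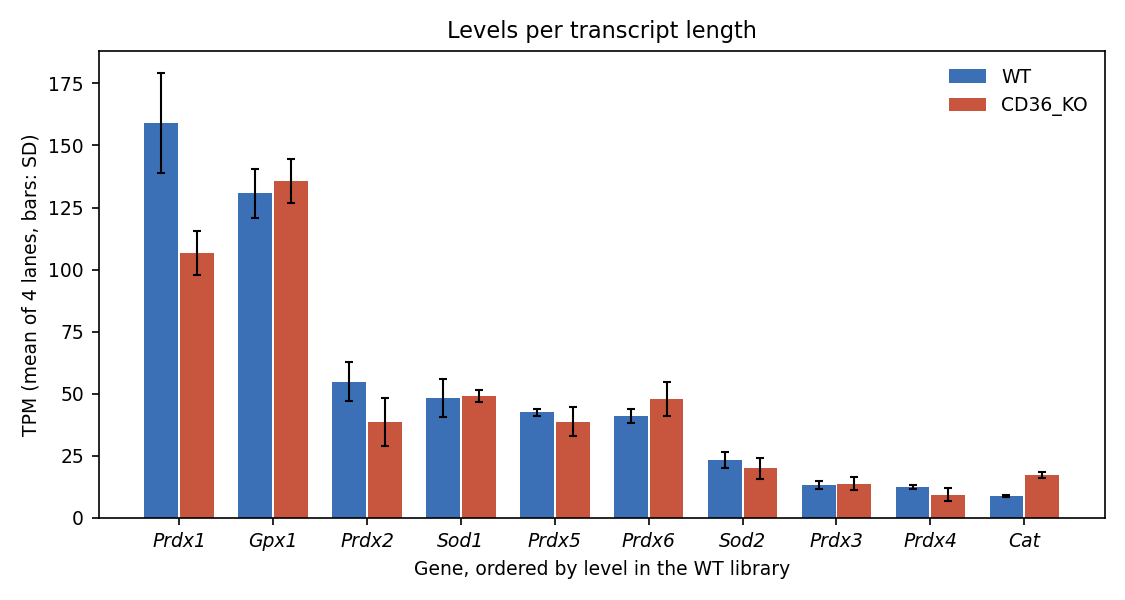
Level of each gene in TPM, mean of 4 lanes with SD, in the order of the WT library. Blue bars are WT and red bars CD36_KO. Prdx1 is the highest bar of the WT library (159 TPM) and second in the CD36_KO library (107 TPM), and the Cat bar is higher in the CD36_KO library (17.2 against 8.81 TPM).

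By annotated transcript, most members had the larger part of their counts in 1 form, but by TPM, which is per length, several did not. Prdx3 has 1 annotated transcript, and 98.9% (WT) and 99.3% (CD36_KO) of the Cat counts were assigned to its 2613-base transcript. For Prdx1 the 2294-base transcript took 62.8% and 72.9% of counts, with 517 to 548 counts in the WT lanes and 335 to 377 in the CD36_KO lanes. By TPM the 2294-base, 611-base and 877-base transcripts of Prdx1 were at 49.0, 53.7 and 47.7 in WT. In CD36_KO they were at 41.0, 31.5 and 16.9 TPM. The 877-base transcript of Prdx1 took 694 and 193 counts in all, with 134 to 226 per WT lane and 16.9 to 77.3 per CD36_KO lane, and the 636-base transcript took 25.3 and 82.3, with lanes at 0 in both libraries. For Prdx5, the 679-base transcript took 201 counts in WT against 60.5 in CD36_KO, in lanes of 44.0 to 63.2 and 8.70 to 26.2, while the 1262-base transcript took 333 and 297. By TPM the 679-base transcript was at 19.1 and 7.48, and the 1262-base transcript at 14.9 and 16.7.

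Transcripts not annotated as protein coding made up much of Prdx6 and part of Sod2, Sod1 and Prdx2. Over all genes 53.0% of counts in each library were assigned to protein-coding transcripts, against 87.0% (WT) and 85.8% (CD36_KO) for the members. A Prdx6 form annotated for nonsense-mediated decay took 50.2% of the counts in WT against 42.1% in CD36_KO. Protein-coding forms of Prdx6 took 18.9% and 23.4%. Over these alone its log2 ratio was 0.13, with totals and TMM factors computed anew (0.987 for WT, 1.013 for CD36_KO). Cat and Prdx3 have only protein-coding forms, so their counts did not change. With the new factors their ratios moved from 0.43 to 0.59 and from -0.51 to -0.36. The retained-intron form of Sod1 took 12.6% and 20.4%, or 13.0 to 19.2 and 11.8 to 28.8 counts per lane, ranges that overlap. For Sod2, protein-coding forms took 61.6% and 68.7%, and over these alone, with the same new factors, its log2 ratio was -0.18. By TPM the 5861-base coding form of Sod2 was at 4.11 in WT and 4.68 in CD36_KO. Its 1138-base lncRNA form was at 10.6 and 9.43 TPM. The 653-base form of Gpx1 took 151 counts in WT against 0.15 in CD36_KO, but 0 in at least 1 WT lane, so its value rests on how reads were divided. These estimates divide reads among overlapping forms and are less certain than gene totals.

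Genes listed for thioredoxin and peroxiredoxin recycling had both signs with TMM, and the positive ones were sestrins and Txnip. The measured thioredoxin, thioredoxin reductase and sulfiredoxin genes had negative values, with Txn2 at -0.56 and Txnrd2 at -0.12 (-0.61 to 0.38). On the log2(TPM + 1) scale Txn2 and Txnrd2 were at 0.08 and 0.19. Of 10 listed genes 9 were measured, of which 1 was lower by 2-fold or more, 0 were higher and 8 lay between (median -0.56), where 10.8% of all measured genes were lower and 6.5% higher. On the log2(TPM + 1) scale 3 were higher (Sesn1 1.34, Txnip 1.15 and Sesn3 1.05) and 0 lower (median 0.08). On that scale 12.3% of all measured genes were higher and 2.7% lower. With library totals 1 was higher and 0 lower, beside 9.14% and 7.71% of all genes. After median centring 1 was higher and 0 lower too. Sesn2, a stress-induced sestrin, was the lower gene (165 and 92 counts, log2 ratio -1.08, -1.47 to -0.70), and it did not pass with library totals, after median centring, on the log2(TPM + 1) scale (-0.36), without WT lane 3 or without CD36_KO lane 2. Txn1, the cytosolic thioredoxin that reduces peroxiredoxins, had a ratio of -0.79 (-0.92 to -0.67), Txnrd1, its reductase, -0.75, and Srxn1, the sulfiredoxin that repairs overoxidised peroxiredoxins, -0.75, values of the same sign as Prdx1 with TMM. On the log2(TPM + 1) scale they were -0.21, 0.00 and -0.08. Sesn1 (0.87, 0.63 to 1.11), Sesn3 (0.74) and the thioredoxin-binding protein gene Txnip (0.45) had positive values, as Cat did. Txnip had 2693 and 4336 counts, and 58.5 ± 6.80 against 131 ± 8.76 TPM.

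The other glutathione peroxidases had only 2 measured genes of 7. Gpx3, the secreted plasma form, had 211 counts in WT against 740 in CD36_KO (log2 ratio 1.57, 1.35 to 1.80), past 2-fold in the direction of Cat and opposite to Gpx1. Gpx4, which reduces lipid peroxides in membranes, had 807 and 650 counts (-0.55, -0.70 to -0.40, and 0.08 on the log2(TPM + 1) scale), near the value of Gpx1. Genes of glutathione and glutaredoxin recycling had 14 entries, of which 1 was lower by 2-fold or more, 0 were higher and 13 lay between (median -0.43), beside 10.8% lower and 6.5% higher over all measured genes. On the log2(TPM + 1) scale 0 were lower (median 0.13, Idh2 -0.62), beside 2.7% of all measured genes. With TMM the number lower was 2 without WT lane 4 or without CD36_KO lane 1 or 3, and 3 without CD36_KO lane 2. The count of 14 arises because Nnt has a pair of gene identifiers among the 13 listed symbols. Idh2, a mitochondrial source of NADPH, was the lower gene (-1.23, -1.43 to -1.04), followed by the glutaredoxin gene Glrx5 (-0.99) and the pentose phosphate gene Pgd (-0.74).

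Partners of the dismutases had a median of -0.48 with TMM and 0.19 on the log2(TPM + 1) scale. Of 6 measured genes 1 was lower by 2-fold or more, 0 were higher and 5 lay between, beside 10.8% lower and 6.5% higher over all measured genes, and 2 were lower without CD36_KO lane 4. The metal transporter gene Slc39a14 was lower (-1.19, -1.39 to -0.98), though not with library totals or on the log2(TPM + 1) scale (-0.16). On the latter scale 0 of the list were lower, beside 2.7% of all measured genes. With TMM the copper importer gene Slc31a1 had -0.94 (-1.18 to -0.70). Ccs, the chaperone that loads copper into Sod1, had 86 and 73 counts (-0.47). Sod3, the extracellular dismutase, had 69 and 127 counts and a ratio of 0.64 (0.21 to 1.09), opposite in sign to Sod1 and Sod2.

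Genes that make superoxide or peroxide had 15 measured entries, of which 2 were higher by 2-fold or more, 1 was lower and 12 lay between (median -0.10), beside 6.5% higher and 10.8% lower over all measured genes. On the log2(TPM + 1) scale 3 were higher and 1 lower (median 0.32), beside 12.3% higher and 2.7% lower over all measured genes. Ero1l, the endoplasmic reticulum oxidase that yields peroxide during disulfide formation, was lower (3068 and 640 counts, -2.50, -2.62 to -2.38). Prdx4 of the same compartment had a value of the same sign. Ero1lb (0.19, -0.02 to 0.39) and Qsox1 (-0.06, -0.28 to 0.16) of the same list had intervals that held 0. The oxidase gene Nox4 (25 and 140 counts, 2.25, 1.63 to 2.92) and the peroxisomal urate oxidase gene Uox (25 and 94, 1.67, 1.02 to 2.37) were higher, both at fewer than 20 CPM in either library. Cybb, the catalytic subunit of the phagocyte oxidase, had a ratio of -0.13. Peroxisome biogenesis genes, whose products import catalase, had 0 of 14 measured members past 2-fold in either direction (median -0.37). The import receptor gene Pex5 had a ratio of -0.55. The value of Cat thus had the opposite sign to this list's median with TMM, and on the log2(TPM + 1) scale the list's median was 0.16 beside 0.89 for Cat.

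**Figure D5:**
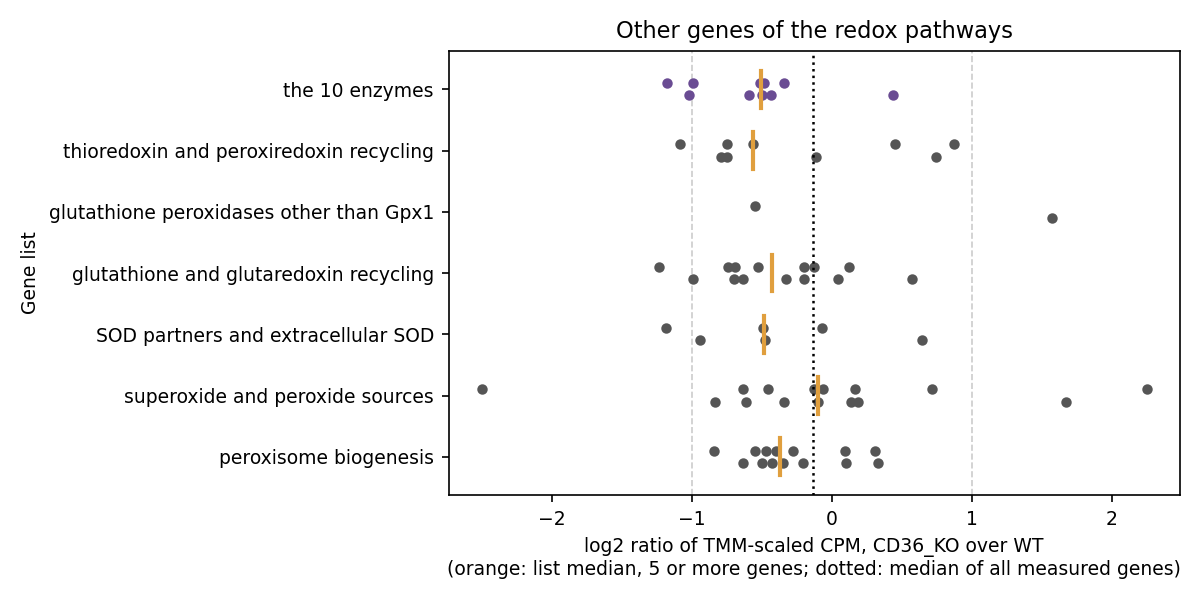
Log2 ratio of TMM-scaled CPM, CD36_KO over WT, for the 10 enzymes (purple) and measured genes of 6 redox lists (grey), 1 point per gene. Orange marks are list medians where 5 or more genes were measured, the dotted line is the median of all measured genes (-0.13) and dashed lines mark 2-fold. The enzymes lie between -1.18 (Prdx2) and 0.43 (Cat).

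Start sites of the members were searched for the antioxidant response element read by NRF2, a search chosen after the values were seen, since several members are known NRF2 targets. RefSeq sequences (GRCm38.p6) from 250 bases before to 50 after the start were matched for 9 of the 10 genes. The letters TGACNNNGC, on either strand, occurred in 2 of these 9, Prdx1 and Sod1, and in 12.4% of all 32851 such windows. The window of Prdx1, a member at the low end, and that of Cat, the higher member, are printed from 250 bases before the start, with the match in capitals.
Prdx1, chr4:116685349-116685598, plus strand: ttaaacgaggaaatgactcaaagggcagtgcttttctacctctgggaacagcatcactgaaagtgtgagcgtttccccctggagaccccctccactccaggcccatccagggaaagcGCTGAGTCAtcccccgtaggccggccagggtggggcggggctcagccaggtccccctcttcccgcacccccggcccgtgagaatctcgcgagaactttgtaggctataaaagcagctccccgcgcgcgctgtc
Cat, chr2:103485154-103485403, minus strand: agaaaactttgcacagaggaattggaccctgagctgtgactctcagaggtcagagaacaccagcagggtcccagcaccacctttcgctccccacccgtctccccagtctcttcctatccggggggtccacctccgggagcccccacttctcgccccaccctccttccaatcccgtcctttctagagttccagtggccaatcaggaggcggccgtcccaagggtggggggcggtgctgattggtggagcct
The match in Prdx1 begins 133 bases before the start, on the minus strand, and its last letters also spell TGAGTCA, the AP-1 motif, which 5.2% of windows hold on either strand. The Prdx1 window also holds this motif on the other strand, as tgactca near its first bases, outside the capitals. The Cat window held neither TGACNNNGC nor the AP-1 motif. A match is a description of letters only.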

How the data were processed

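Per the submitters' processing notes, the authors ran kallisto on GRCm38.p6. DESeq2 is also listed, and no source used here gives a version. The deposited tables, 1 per lane, give estimated counts per transcript (33.8% to 35.4% of values not whole) and, per the file headers, TPM scaled by the authors for effective length and lane total. Estimated counts of 142351 transcripts were summed over genes and over the 4 lanes of each library and rounded. TMM factors were computed with edgeR 4.0.16 in R 4.3.3 (0.934 for WT, 1.071 for CD36_KO). Ratio intervals (95%) come from exact Clopper-Pearson limits on how a gene's counts divide between the libraries. Genes averaging 5 CPM or more counted as measured, and a 2-fold call needed a log2 ratio of at least 1 in size and an interval excluding 0. Lanes of a library differed by little more than sampling noise: chi-square per degree of freedom was 1.29 in WT and 1.26 in CD36_KO, against 19.7 between libraries. Alternatives were library totals, DESeq2 1.42.0 size factors, median centring, TPM, protein-coding transcripts, other filters and each lane left out. The steps were tested on simulated data. The members and lists were chosen with earlier results of these data known. From each list up to 3 measured genes with the largest absolute ratio were named, except some that are not reported here, and Txnrd1, Srxn1, Sesn3, Txnip, Cybb, Ccs, Dct, Trbc2 and others beside them were chosen for their roles after values were seen. All 48 member transcripts were in GENCODE M21. Annotated copies with matching symbols (Prdx6b and pseudogenes) held at most 11 counts in a library.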

Additional observations from a re-analysis of the deposited data

How the results depend on the processing

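The number of members at least 2-fold lower was 2 in the main analysis. It was 0 with library totals and on the log2(TPM + 1) scale, 1 after centring on the median of all measured genes, 1 over protein-coding transcripts only and 4 with a 1.5-fold threshold, which 23.2% of measured genes passed downward. With 1 lane left out and TMM factors computed anew, it ran from 1 to 3. It was 1 without any one WT lane or without CD36_KO lane 4, and 3 without CD36_KO lane 3, where Prdx4 passed too. Members lower with an interval that excluded no difference numbered 9 in the main analysis and 7 over protein-coding transcripts, where Sod2 was at -0.18. The members' median log2 ratio was -0.31 with library totals and -0.051 with log2(TPM + 1) and -0.052 with log2(TPM + 0.1). Opposite signs to the main values were seen with log2(TPM + 1) and log2(TPM + 0.1) for Prdx3 (0.046 and 0.049), Prdx6 (0.22 and 0.22), Sod1 (0.027 and 0.028) and Gpx1 (0.053 and 0.054), and over protein-coding transcripts for Prdx6 (0.13). Over protein-coding transcripts the totals and TMM factors were also computed anew. There Cat, whose counts did not change, went from 0.43 to 0.59, so the ratios of that setting are on another scale. The cause of the opposite signs was not tested. Cat kept its sign under every alternative run, from 0.42 to 0.96, and so did Prdx1, Prdx2, Prdx4, Prdx5 and Sod2. With DESeq2 size factors all 10 ratios lay inside their main intervals. Over genes of at least 20 CPM 10% were 2-fold lower and 5.08% higher. No paired analysis was possible because the shared numbers are lane numbers of 1 library per genotype. Depth limits Prdx4 most, at 207 and 123 counts.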
